A study of Mus musculus with 8 samples.

Results

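Ptprz1, its secreted ligands and the chondroitin sulfate proteoglycans of brain matrix were examined in the median eminence (ME) of the mouse. The 10 genes were chosen by name, with earlier results of these data known, from the 55450 genes of the bulk count table. They are Ptprz1, the ligands Ptn and Mdk, the proteoglycans Cspg4, Cspg5, Vcan, Ncan and Bcan, and the tenascins Tnc and Tnr. The values that led to their choice are the bulk difference between tumor and control ME and the levels in tanycytes and in oligodendrocyte precursor cells (OPCs), so these values are given as a description without a test. Bulk RNAseq was run on the ME of 3 control mice, given as wild type in the labels, and of 4 mutant mice with the Rax-CreERT2 driver and the BrafV600E allele. All 7 libraries are labelled as C57BL/6 mice with an age of 2 months. The study's methods give a C57BL/6N background and place the dissection at 2 months after tamoxifen, which adult mice received. The labelled age and this timing do not match, and the age at dissection is left unresolved here. Single-cell RNAseq was run on the ME of wild-type females of 2 months, C57BL/6 in the labels and C57BL/6N in the methods, pooled into 1 library of 990 cells. The Cre recombinase is driven by Rax, a tanycyte gene, but the tissue sequenced was whole dissected ME, and the gene counts do not separate the mutant Braf allele from the normal one.

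Ptprz1 encodes a receptor-type tyrosine phosphatase whose extracellular part carries chondroitin sulfate chains and is also released as the matrix proteoglycan phosphacan. The growth factors pleiotrophin and midkine bind these chains and inhibit the phosphatase. Lecticans (versican, neurocan and brevican, encoded by Vcan, Ncan and Bcan) bind hyaluronan at one end and tenascins at the other, which cross-links the matrix around cells. In the brain, Ptprz1 and Cspg4, the NG2 proteoglycan, are widely used as genes of OPCs, and Ptprz1 is also made by radial glia, tanycytes and astrocytes.

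The bulk libraries differed in more than their group. They held between 4928456 and 13816596 counts, and between 17874 and 40852 genes with at least 1 count. Controls 2 and 3 and mutant 1 had the fewest detected genes, all under 30000. The summed level, in counts per 1000000 (CPM), of pituitary endocrine markers other than those of the pars tuberalis ran from 706 to 15260 in controls and from 971 to 20160 in mutants, and those of erythrocyte markers from 5649 to 9639 and from 1391 to 13210. edgeR's quasi-likelihood test called 0 of 20466 genes tested between mutant and control at a Benjamini-Hochberg adjusted p under 0.05 (0% of genes). At an unadjusted p under 0.05, 865 genes (4.23%) were higher and 796 (3.89%) lower in the mutants. DESeq2 called 360 of 26211 genes (1.37%) and limma-voom 0. All members were tested, and their log2 fold changes come from the edgeR fit. The standard error (SE) given is the absolute log2 fold change divided by the square root of the test's F statistic. The median log2 fold change was 0.13 over all genes tested and 1.35 over the members.

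Promoters are printed for 4 of the genes whose mean bulk levels were higher in the mutants, to show the DNA upstream of their starts. RefSeq promoters on GRCm38.p6 were found for 8 of the 10 members, and the bases shown lie upstream of the start in both RefSeq and GENCODE M21. Capitals mark GGGCGG, the core of the GC box, on either strand.
Ptprz1 (chr6:22875252-22875501, plus strand): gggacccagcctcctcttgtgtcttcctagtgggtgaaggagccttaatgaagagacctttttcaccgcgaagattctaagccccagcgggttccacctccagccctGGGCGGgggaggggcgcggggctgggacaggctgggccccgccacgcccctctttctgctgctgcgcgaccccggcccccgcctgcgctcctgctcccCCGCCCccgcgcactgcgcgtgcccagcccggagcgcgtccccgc
Cspg4 (chr9:56864854-56865032, plus strand): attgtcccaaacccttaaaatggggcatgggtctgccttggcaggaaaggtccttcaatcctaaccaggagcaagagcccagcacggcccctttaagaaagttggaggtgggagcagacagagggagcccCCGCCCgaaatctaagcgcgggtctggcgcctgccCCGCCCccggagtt
Bcan (chr3:88000357-88000606, minus strand): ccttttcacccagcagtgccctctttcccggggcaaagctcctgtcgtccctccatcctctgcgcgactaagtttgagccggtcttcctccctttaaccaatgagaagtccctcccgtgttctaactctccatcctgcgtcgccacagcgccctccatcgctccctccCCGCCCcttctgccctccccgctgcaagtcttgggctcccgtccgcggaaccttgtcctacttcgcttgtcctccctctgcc
Vcan (chr13:89742513-89742762, minus strand): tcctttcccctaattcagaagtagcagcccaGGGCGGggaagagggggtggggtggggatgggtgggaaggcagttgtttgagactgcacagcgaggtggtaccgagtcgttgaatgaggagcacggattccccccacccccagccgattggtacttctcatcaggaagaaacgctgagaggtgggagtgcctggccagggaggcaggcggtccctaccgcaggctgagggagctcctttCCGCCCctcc
The GC box core occurred in all 4 windows, 2 times in Ptprz1, Cspg4 and Vcan and 1 time in Bcan. Among 32851 promoters, 32.7% held it in a window of 250 bases, and 20.9% in the 179 bases used for Cspg4. The E-box CANNTG, on either strand, was found 1 time in Vcan and in none of the other windows, whereas 66.2% of all promoters held it in 250 bases and 55.3% in 179. No window held TATAAA, the TATA box core, which 12.4% of all promoters held in 250 bases on either strand and 8.34% in 179. The letters ACAAAG, a core bound by Sox factors, were in no window. They were in 16.5% of all promoters over 250 bases and in 12.2% over 179. These are matches of letters only, and the motifs were not matched to any measured binding.

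In bulk ME, Ptprz1, Cspg4, Bcan and Tnr did not overlap between the groups. Cspg5, Vcan and Ncan had higher means in the mutants with groups that overlapped, and the groups of Ptn, Mdk and Tnc overlapped as well. Of the 10 members, 4 (Ptprz1, Cspg4, Bcan and Tnr) had every mutant library above every control, and 0 had every mutant below. Over all genes tested, 1194 (5.83%) had every mutant above every control and 650 (3.18%) every mutant below. The bulk tissue cannot tell more cells of a type from more RNA per cell.

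Ptprz1 (ENSMUSG00000068748, chr6:22875502-23052916 on the plus strand of GRCm38) was at 46.1, 62.1 and 64.0 CPM in controls 1 to 3. It was at 220, 334, 292 and 369 CPM in mutants 1 to 4. The lowest mutant lay far above the highest control, and the values within each group were close to each other. The log2 fold change was 2.40 ± 0.31 (SE, n = 3 and 4), a ratio of group means of 5.29.

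**Figure D1:**
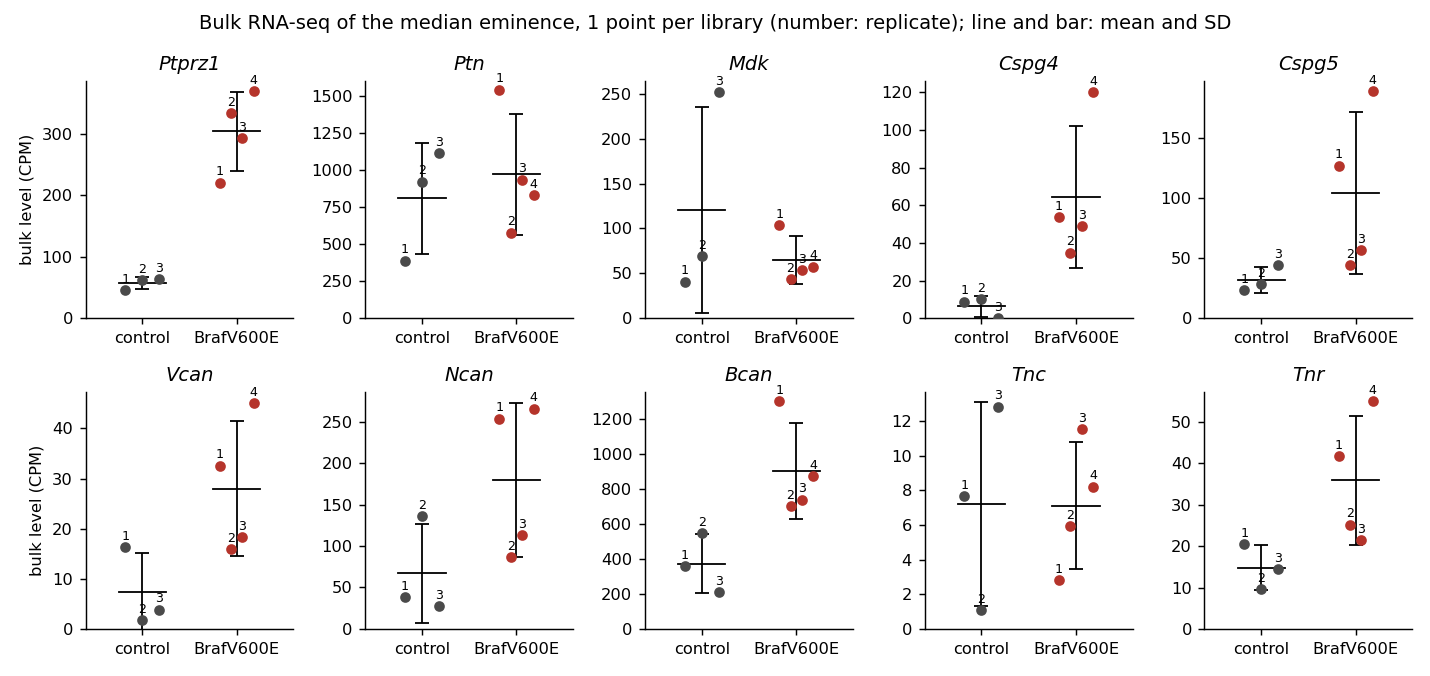
Levels of the 10 members in bulk ME (CPM, linear axes from 0, each gene on its own scale), 1 point per library with its replicate number, for 3 control and 4 BrafV600E libraries. Lines and bars are the mean and SD, and bars that would pass below 0 are cut there. The 4 mutant points of Ptprz1 lie between 220 and 369 CPM, above the controls at 46.1 to 64.0 CPM, whereas those of Ptn, Mdk and Tnc overlap the controls.

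The ligands showed no such separation. Ptn (ENSMUSG00000029838, chr6:36714929-36810220), which encodes pleiotrophin, was at 390, 923 and 1117 CPM in the controls and at 1545, 578, 936 and 831 CPM in the mutants. The groups overlapped, with a log2 fold change of 0.26 ± 0.43. Mdk (ENSMUSG00000027239, chr2:91929805-91932297), which encodes midkine, was at 40.7, 68.8 and 252 CPM in the controls and at 104, 43.9, 53.3 and 57.4 CPM in the mutants. Its log2 fold change was -0.90 ± 0.56. The direction was not stable, as the value was 0.26 without control 3. It was 0.61 with the number of detected genes as a covariate and all libraries kept. Between the 4 libraries with over 30000 detected genes, control 1 and mutants 2 to 4, the log2 fold change was 0.996 for Ptn and 0.33 for Mdk. On a scale of CPM per kilobase of exon, Ptn was at 236 in controls and 283 in mutants, against 4.03 and 21.3 for Ptprz1, so the bulk tissue held more ligand than receptor RNA in both groups.

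Among membrane-spanning proteoglycans, Cspg4 (ENSMUSG00000032911, chr9:56865033-56899870) was at 8.81, 10.0 and 0 CPM in the controls and at 53.7, 34.8, 48.9 and 120 CPM in the mutants. Every mutant was above every control, and control 3 had no count of it. The log2 fold change was 3.36 ± 1.03, the largest of the 10 in the main fit and the one with the widest error. Without control 3, the library with the fewest detected genes, it was 2.76. Cspg5 (ENSMUSG00000032482, chr9:110243783-110262576), which encodes neuroglycan C, was at 23.6, 28.4 and 44.2 CPM in the controls and at 127, 44.0, 57.0 and 189 CPM in the mutants. Mutants 1 and 4 were high, and mutant 2 lay level with control 3, so the groups touched at a log2 fold change of 1.70 ± 0.52.

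The 3 lecticans were higher on average in the mutants, and Bcan without overlap. Vcan (ENSMUSG00000021614, chr13:89655312-89742509) was at 16.3, 1.69 and 3.85 CPM in the controls and at 32.6, 15.9, 18.4 and 45.0 CPM in the mutants, with a log2 fold change of 1.95 ± 0.74. Control 1 reached the level of mutant 2, and between the libraries with over 30000 detected genes the log2 fold change was 0.68, whereas without control 1 it was 3.30. Ncan (ENSMUSG00000002341, chr8:70093085-70120873) was at 38.8, 136 and 27.0 CPM in the controls and at 254, 86.2, 114 and 266 CPM in the mutants, with a log2 fold change of 1.42 ± 0.60. Control 2 lay above mutants 2 and 3, and without it the value was 2.45. Bcan (ENSMUSG00000004892, chr3:87987531-88000230) was at 360, 549 and 210 CPM in the controls and at 1302, 704, 739 and 875 CPM in the mutants, with a log2 fold change of 1.28 ± 0.39. Per kilobase of exon, Bcan was the most abundant of the 5 proteoglycans without a phosphatase domain in both groups, at 91.8 CPM in controls and 223 in mutants, followed by Ncan at 9.34 and 24.98.

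The tenascins, oligomeric matrix glycoproteins, differed from each other. Tnr (ENSMUSG00000015829, chr1:159523769-159931729) was at 20.6, 9.59 and 14.4 CPM in the controls and at 41.8, 25.2, 21.5 and 55.1 CPM in the mutants. All mutants were above all controls, mutant 3 by a small margin, and the log2 fold change was 1.27 ± 0.44. Tnc (ENSMUSG00000028364, chr4:63959785-64047015) was at 7.68, 1.07 and 12.8 CPM in the controls and at 2.80, 5.94, 11.5 and 8.22 CPM in the mutants, with a log2 fold change of -0.02 ± 0.81. Tnr shares 3.44% of its exon bases with the antisense gene Gm38039 and Tnc 2.26% with 8030451A03Rik on the opposite strand. Whether the counting used the strand is not given in the sources used here.

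The mutants were not alike across the members. Mutants 1 and 4 held the highest levels of Cspg5, Vcan, Ncan, Tnr, Cspg4, Bcan and Mdk among the mutants, whereas Ptprz1 was lowest in mutant 1. The summed level of 10 OPC markers, none of them a member, followed the former pattern, at 1932, 900, 851 and 2379 CPM in mutants 1 to 4. It was at 290, 622 and 337 CPM in the controls. The pattern was not particular to OPC markers. In mutants 1 to 4, astrocyte markers summed to 4531, 2157, 2535 and 3486 CPM. Macrophage or microglia markers summed to 1829, 765, 995 and 1435 CPM, and mural markers to 190.5, 116.9, 156.3 and 249 CPM. These latter lists overlapped the controls, and the other lists of cell markers did not follow the pattern. All 10 OPC markers had a positive log2 fold change with a median of 2.37, 9 were higher at an unadjusted p under 0.05, and none passed edgeR's test after adjustment. The 9 oligodendrocyte markers went the other way, with a median of -1.35, 8 lower at an unadjusted p under 0.05 and 0 called by edgeR. The 11 tanycyte markers tested had a median of 0.10, with 3 higher and 1 lower at an unadjusted p under 0.05, and 2 had all mutants above all controls. The 8 astrocyte markers had a median of 0.58, with 4 higher and 0 lower at an unadjusted p under 0.05, and 4 had all mutants above all controls. In both lists 0 were called. The part of these cell types in the members' differences was not tested.

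In the wild-type single-cell library, 11 clusters were found from variable genes that left out all members and the genes of their pathway. A cluster was named where at least 75% of a list of markers stood at 3 or more times their CPM in the rest of the cells, a rule set after the values were seen. The OPC-like cluster of 60 cells carried 10 of 10 OPC markers, and the tanycyte-like cluster of 177 cells 10 of 12 tanycyte markers. The ependymal-like cluster of 50 cells carried 6 of 8 ependymal markers and also 7 of the 12 tanycyte markers. At a resolution of 0.4 it joined the tanycyte-like cells, which then numbered 227. Of 8 astrocyte markers, the tanycyte-like cluster carried 5 and the ependymal-like cluster 3, and no cluster was named for astrocytes. Any astrocytes in these clusters were thus not told apart from the other cells there. Levels are unique molecular identifiers (UMIs) summed over a cluster per 1000000 UMIs of that cluster (CPM), with exact Poisson 95% intervals that cover counting error only, as 1 library allows no test. Of the 10 members, 8 were higher in OPC-like than in tanycyte-like cells, and 8 were highest there of all 11 clusters. Both counts include Tnc, which rests on 3 UMIs in OPC-like cells and whose order among clusters was not measurable at this depth. Ptn and Mdk were the exceptions in both counts.

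**Figure D2:**
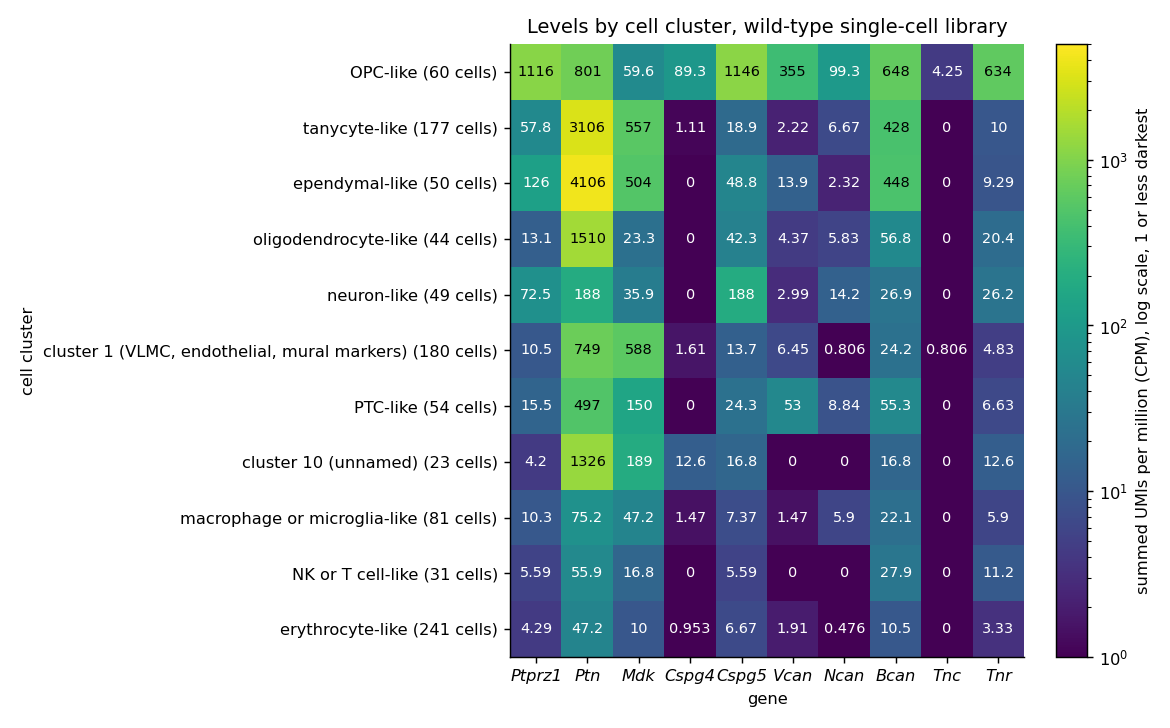
Levels of the 10 members (columns) in the 11 cell clusters (rows) of the wild-type ME, in CPM, with the colour on a log scale and the value printed in each cell. The OPC-like row holds the highest value of 8 columns, Tnc from 3 UMIs among them, and the columns of Ptn and Mdk are highest in ependymal-like cells and in cluster 1.

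Ptprz1 was at 1116 CPM (1040 to 1197) in OPC-like cells and at 57.8 CPM (47.2 to 70.0) in tanycyte-like cells, a ratio of 19.3 (15.7 to 23.9). Ependymal-like cells followed OPC-like cells at 126 CPM (94.3 to 164), and neuron-like cells were at 72.5 CPM (58.8 to 88.5), which the tanycyte-like interval overlaps. The 60 OPC-like cells held 72.3% of the 1089 Ptprz1 UMIs of the library, and the 177 tanycyte-like cells 9.55%. A Ptprz1 UMI was found in 55 of 60 OPC-like cells, 91.7% (exact Clopper-Pearson 95% interval 81.6 to 97.2), and in 68 of 177 tanycyte-like cells, 38.4% (31.2 to 46.0). Erythrocyte-like cells, which should lack the gene, had 1 in 3.73% of cells (1.72 to 6.97) at a median depth of 7747 UMIs, against 7886 in tanycyte-like and 10554.5 in OPC-like cells. With every cell thinned to 3000 UMIs, the shares were 80.0% in OPC-like, 11.9% in tanycyte-like and 0.830% in erythrocyte-like cells. Ptprz1 RNA was thus measured in tanycyte-like cells above the background of free RNA, and at a far lower level than in OPC-like cells.

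The ligands had the opposite distribution. Ptn was at 3106 CPM (3025 to 3188) in tanycyte-like cells and at 4106 CPM (3917 to 4302) in ependymal-like cells, against 801 CPM (737 to 870) in OPC-like cells. The tanycyte-like level was 3.88 times (3.55 to 4.23) that of OPC-like cells, and every one of the 177 tanycyte-like cells had a Ptn UMI. Oligodendrocyte-like cells came next, at 1510 CPM. Mdk was at 557 CPM (523 to 593) in tanycyte-like cells and at 59.6 CPM (42.9 to 80.5) in OPC-like cells, a ratio of 9.36 (6.87 to 13.1). The level in cluster 1, which carried markers of vascular leptomeningeal (VLMC), endothelial and mural cells, was 588 CPM (546 to 632), indistinguishable from the tanycyte-like level at this depth. Tanycyte-like cells held 51.6% of all Ptn UMIs and 45.1% of all Mdk UMIs. As every tanycyte-like cell had a Ptn UMI, so did all 68 of those with a Ptprz1 UMI. Of the 55 OPC-like cells with Ptprz1, 51 had a Ptn UMI, against 54 of all 60. These counts thus do not show that the genes go together within a cluster.

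Cspg4, Vcan and Tnc in tanycyte-like cells could not be told from background. Cspg4 was at 89.4 CPM (68.7 to 114) in OPC-like cells and at 1.11 CPM (0.135 to 4.01) in tanycyte-like cells, from 2 UMIs, against 0.953 CPM (0.115 to 3.44) in erythrocyte-like cells. Vcan was at 355 CPM (312 to 401) in OPC-like cells and at 2.22 CPM (0.606 to 5.69) in tanycyte-like cells, from 4 UMIs, against 1.91 CPM (0.519 to 4.88) in erythrocyte-like cells. Only 4 Tnc UMIs were counted in all 990 cells, of which 3 lay in OPC-like cells and none in tanycyte-like cells, where 3 UMIs would be 1.67 CPM. Its source was not measurable at this depth. Vcan was also found in PTC-like (pars tuberalis) cells, at 53.0 CPM (34.0 to 78.9).

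Cspg5, Tnr and Ncan were also far higher in OPC-like cells. Cspg5 was at 1146 CPM (1068 to 1228) there and at 18.9 CPM (13.1 to 26.4) in tanycyte-like cells, a ratio of 60.6 (43.0 to 88.2). Neuron-like cells were next, at 188 CPM (165 to 212). Tnr was at 634 CPM (576 to 696) in OPC-like cells and at 10.0 CPM (5.93 to 15.8) in tanycyte-like cells, a ratio of 63.4 (39.6 to 108), and no other cluster passed 26.2 CPM. Ncan was at 99.3 CPM (77.4 to 125) and at 6.67 CPM (3.45 to 11.6), a ratio of 14.9 (8.01 to 30.2) from 70 and 12 UMIs. In erythrocyte-like cells Cspg5 was at 6.67 CPM (3.65 to 11.2), Tnr at 3.335 CPM (1.34 to 6.87) and Ncan at 0.477 CPM (0.0121 to 2.655). The tanycyte-like interval of Tnr overlaps the erythrocyte-like one. That of Cspg5 overlaps cluster 1, at 13.7 CPM (7.98 to 21.9). That of Ncan overlaps macrophage or microglia-like cells, at 5.90 CPM (1.61 to 15.1). Against erythrocyte-like cells alone, the tanycyte-like intervals of Cspg5 and Ncan lay higher. These ratios thus rest on low tanycyte-like levels that some other clusters matched within counting error.

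Bcan was the proteoglycan that both cell types shared. It was at 648 CPM (590 to 710) in OPC-like cells, at 428 CPM (398 to 459) in tanycyte-like cells and at 448 CPM (387 to 516) in ependymal-like cells, and no other cluster passed 56.8 CPM. The ratio of OPC-like to tanycyte-like cells was 1.51 (1.35 to 1.70). As tanycyte-like cells outnumbered OPC-like cells, they held 48.2% of the Bcan UMIs, against 28.6% in OPC-like cells. A Bcan UMI was found in 94.9% of tanycyte-like cells, 93.3% of OPC-like cells and 9.13% of erythrocyte-like cells.

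**Figure D3:**
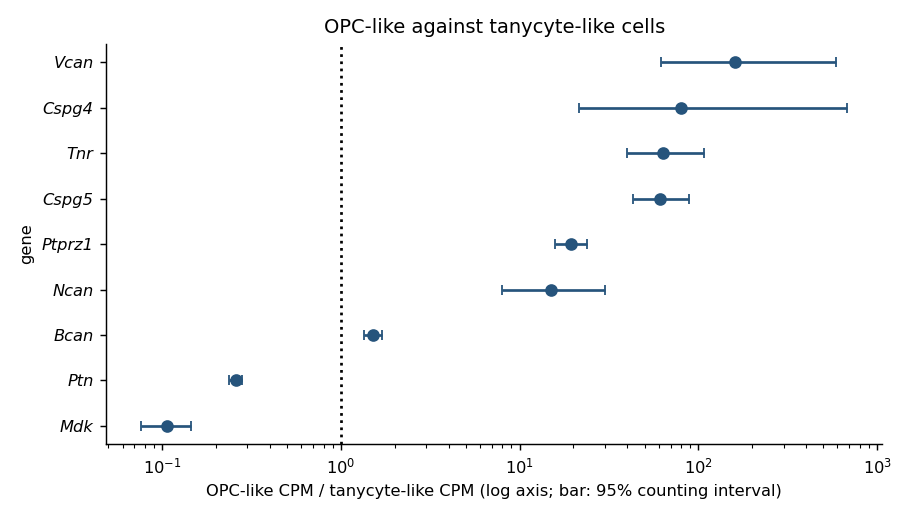
Ratio of the OPC-like to the tanycyte-like level of 9 members in the wild-type single-cell library (log axis), with exact 95% intervals for counting error. Tnc is left out, as tanycyte-like cells had none of its UMIs. Mdk (0.107) and Ptn (0.258) lie below 1, Bcan (1.51) just above it, and the other 6 between 14.9 for Ncan and 160 for Vcan.

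The OPC-like cells were not uniform. At a finer resolution of 1.2 they split into a cluster of 38 cells led by Top2a, a gene of dividing cells, and C1ql1, and a cluster of 22 cells led by Enpp6, a gene of newly forming oligodendrocytes, and Fyn. The clusters carried 10 and 9 of the 10 OPC markers, and 0 and 3 of 9 oligodendrocyte markers. Cspg5 was at 2045 CPM in the Top2a-led cells and at 12.8 CPM in the Enpp6-led cells, a ratio of 159 (62.0 to 587). Cspg4 was at 158 and 3.21 CPM, the latter from 1 UMI, with a ratio of 49.2 (8.51 to 1973). Both proteoglycans were thus near the level of tanycyte-like cells in the Enpp6-led cells. Ptprz1 was at 1740 and 330 CPM, a ratio of 5.27 (4.28 to 6.54), and Ptn at 1348 and 112 CPM, a ratio of 12.0 (8.53 to 17.4). Ncan was at 160 and 22.4 CPM, and Vcan at 430 and 260 CPM, with a ratio of only 1.66 (1.26 to 2.18). Tnr and Bcan ran the other way. Tnr was at 331 CPM in the Top2a-led and at 1016 CPM in the Enpp6-led cells, a ratio of 0.325 (0.263 to 0.4002), and Bcan at 493 and 843 CPM, a ratio of 0.585 (0.483 to 0.707). The median depth was 10176.5 UMIs in the former and 17563 UMIs in the latter cells.

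**Figure D4:**
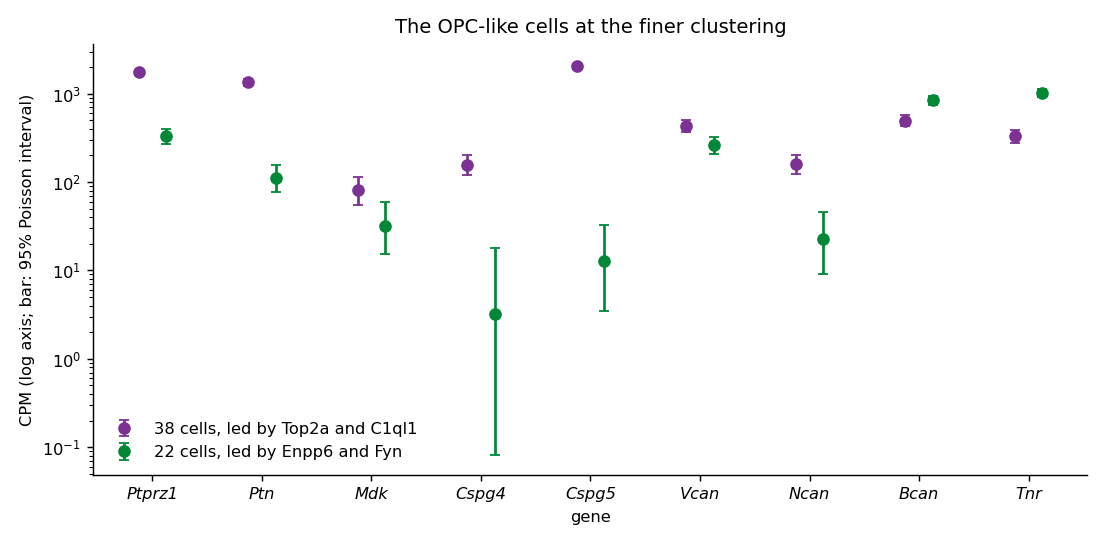
Levels of 9 members (CPM, log axis) in the OPC-like clusters found at the finer resolution, 38 cells led by Top2a and C1ql1 and 22 cells led by Enpp6 and Fyn, with exact Poisson 95% intervals. Cspg5 and Cspg4 differ most, at 2045 against 12.8 CPM and 158 against 3.21 CPM, and Bcan and Tnr are higher in the second cluster.

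Within OPC-like cells, the 31 cells with a Cspg4 UMI and the 42 with a Cspg5 UMI all had a Ptprz1 UMI, among 55 cells of 60 that had one. In tanycyte-like cells, 1 of the 68 cells with Ptprz1 had Cspg4, 1 had Vcan and 14 had Cspg5, whereas 66 had Bcan. Over all 177 tanycyte-like cells, these genes were found in 2, 4, 30 and 168 cells. The tanycyte-like cells split at the finer resolution into 107 cells led by Ager and Scn7a and 70 cells led by Cyr61 and Fndc3c1. Ptprz1 was at 70.0 CPM (52.6 to 91.3) in the former and at 49.3 CPM (36.7 to 64.8) in the latter, with overlapping intervals. Mdk was at 705 CPM (647 to 767) and 446 CPM (407 to 489), and Bcan at 510 CPM (460 to 562) and 365 CPM (329 to 404), both apart by more than counting error.

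The ratio of OPC-like to tanycyte-like levels was set beside the bulk difference. This was done for all genes tested in bulk with at least 20 UMIs in these cells together. The ratio leaves out the other clusters, so a gene high by it can be higher still elsewhere. Nfasc, for example, was at 458 CPM in OPC-like and 23.3 CPM in tanycyte-like cells, but at 511.5 CPM in oligodendrocyte-like cells. The classes were chosen after the values were seen, with 5 CPM added to both levels before the ratio. Of 308 genes other than members that were at least 8-fold higher in OPC-like than in tanycyte-like cells, 262 had a positive bulk log2 fold change, with a median of 0.86, and 84 (27.3%) had all mutants above all controls. Among all 9893 genes other than members, 4774 had a positive value, with a median of -0.03, and 5.27% had all mutants above all controls. Of 543 genes 3 to 8-fold higher in OPC-like cells, 377 were positive, with a median of 0.36. For 14.2% of them all mutants were above all controls. Of 8144 genes within 3-fold, 3.86% had all mutants above all controls, with a median of -0.05. Of 697 genes 3 to 8-fold higher in tanycyte-like cells, 5.16% did, with a median of -0.19. Of 201 genes at least 8-fold higher in tanycyte-like cells, 4.98% did, with a median of -0.19. Genes at least 8-fold higher in OPC-like cells mostly stood higher in mutant ME. The members Ptprz1, Cspg4, Cspg5, Vcan, Ncan and Tnr fall in that class by their single-cell ratio. Both values led to the choice of the members, so this is a description. The part of OPCs in their bulk differences was not tested. Within that class, 28 of the 308 genes (9.09%) had a larger bulk log2 fold change than Ptprz1, and 8 (2.60%) than Cspg4. A larger value than that of Cspg5 was found in 62 (20.1%), and than that of Tnr in 97 (31.5%). Bcan, outside the class, had a bulk log2 fold change of 1.28 at a log2 ratio of 0.59 between the cell types. The single-cell library is from wild-type mice, so the source of these RNAs in tumor ME was not measured.

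**Figure D5:**
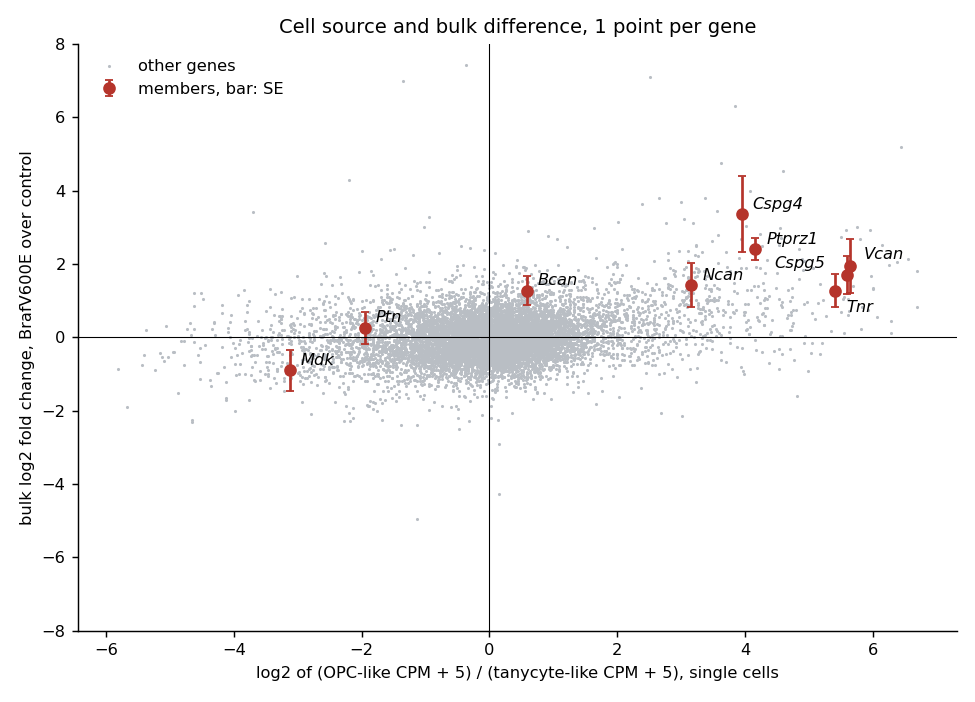
Bulk log2 fold change of BrafV600E over control ME (vertical axis) against the log2 ratio of OPC-like to tanycyte-like levels with 5 CPM added (horizontal axis), 1 point per gene. Grey points are other genes, and red points are 9 members with the SE of the bulk value. The members with a log2 ratio above 3 lie between 1.27 (Tnr) and 3.36 (Cspg4), and Mdk and Ptn, to the left of 0, lie at -0.90 and 0.26.

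Of 108 other genes of the pathway, 100 were tested in bulk, and edgeR's quasi-likelihood test called 0 of them. At an unadjusted p under 0.05, 7 of the 100 were higher and 6 lower in the mutants. Over all genes tested, 4.23% were higher and 3.89% lower at that threshold. Among 24 tested ligand and receptor partners the median log2 fold change was 0.37, with 3 higher and 0 lower at an unadjusted p under 0.05. These were Cntn1 (contactin 1, a neuronal and glial adhesion partner of Ptprz1), Ncam1 and Sdc3, named after their values were seen. Cntn1 was at 129, 111 and 115 CPM in the controls and at 202, 242, 199 and 292 CPM in the mutants. It was highest in OPC-like cells, at 370 CPM against 9.45 CPM in tanycyte-like cells. The most abundant partners per length, Sdc4, Sdc2 and Itgb1, had log2 fold changes of 0.61 ± 0.34, 0.23 ± 0.28 and 0.02 ± 0.32. Of 21 partners with at least 20 UMIs, 6 were highest in OPC-like and 4 in tanycyte-like cells. The share of all genes highest in these clusters was not counted.

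The matrix genes around the members were mixed. The 14 hyaluronan net genes tested had a median log2 fold change of 0.31, with 1 higher and 1 lower at an unadjusted p under 0.05. Cd44, a hyaluronan receptor, was the gene higher, at 68.0, 76.8 and 39.3 CPM in the controls and at 164, 155, 187 and 97.0 CPM in the mutants. Its log2 fold change was 1.30 ± 0.34 with an adjusted p of 0.411, and it was highest in tanycyte-like cells, at 168 CPM against 7.09 CPM in OPC-like cells. Hapln2, a link protein of myelinated axons, was the gene lower, with a log2 fold change of -1.87 ± 0.45, and was highest in oligodendrocyte-like cells at 353 CPM. The third of the abundant genes of this list, Hyal2, was at -0.45 ± 0.41.

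Chondroitin sulfate enzymes had a median log2 fold change of 0.33 over 21 genes tested, with 1 higher (Xylt1, which starts the chain) and 1 lower (Chst14) at an unadjusted p under 0.05. Of 20 with at least 20 UMIs, 6 were highest in OPC-like cells, again without a share over all genes to set it against. Xylt1 was at 133 CPM there and at 7.78 CPM in tanycyte-like cells, with a bulk log2 fold change of 1.32 ± 0.46. The most abundant of these enzymes, Chpf, Chst12 and B3gat3, had values of -0.01 ± 0.29, -0.43 ± 0.38 and 0.01 ± 0.32. Other proteoglycans had a median of -0.14 over 21 genes, with 0 higher and 4 lower (Dcn, Lum, Gpc4 and Podxl) at an unadjusted p under 0.05. Dcn, the small leucine-rich proteoglycan decorin, was at 826, 2264 and 2545 CPM in the controls and at 593, 378, 324 and 242 CPM in the mutants. Its log2 fold change was -2.29 ± 0.44, with an adjusted p of 0.194 by edgeR and of 0.000426 by DESeq2, and it was highest in cluster 1, at 15090 CPM. DESeq2 called 3 of the pathway genes, Dcn, Lum and Hapln2, all lower. The other abundant genes of the list, Prelp and Gpc3, had log2 fold changes of 0.25 ± 0.35 and -0.40 ± 0.35. Markers of VLMCs, of which Dcn and Lum are 2, had a median of -0.79, and the part of that cell type was not tested. Matrix proteases and inhibitors had a median of 0.50 over 20 genes, with 2 higher (Adamts1 and Mmp15) and 0 lower at an unadjusted p under 0.05, and Htra1, Timp3 and Timp2, the most abundant, stood at 0.30 ± 0.34, -0.08 ± 0.32 and -0.33 ± 0.32.

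The genes most like Ptprz1 were not the same in both data sets. Over the 7 bulk libraries, the highest Pearson correlations of log2 CPM were those of Bak1 (0.992), Tril (0.991), Zscan2 (0.990), 4632418H02Rik (0.989) and Gm37099 (0.988). Tril was at 28.6, 28.8 and 31.0 CPM in the controls and between 67.1 and 83.1 CPM in the mutants, and Bak1 did not pass 3.40 CPM in any library. The last 3 had no count in any control. These correlations mostly carry the step between groups. Over the 11 cell clusters of the single library, among 5879 genes with at least 200 UMIs, they were Cacng4 (0.959), an OPC marker of the lists, B3gat2 (0.929), Gpr37l1 (0.928), Nlgn1 (0.922) and 4430402I18Rik (0.922). Gpr37l1 was at 766 CPM in OPC-like and at 32.8 CPM in tanycyte-like cells.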

How the data were processed

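Bulk libraries were made from dissected ME with the Smart-seq2 protocol, and the authors deposited raw read counts per Ensembl gene, whose aligner and counter are not given in the sources used here. For single cells, the authors deposited UMI counts per gene and cell without normalization. Their processing notes name Cell Ranger 2.0.1, DESeq2, GRCm38 and mm10. Samples were grouped by their labels, and 0 columns were left unused. Neither source names a batch or pairs the bulk mice. The p-values thus set the group difference against the spread between these libraries, which may include differences that the sources do not name. The members, gene lists and tests were chosen with earlier results of these data known.

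Bulk counts were tested in edgeR 4.0.16 (R 4.3.3) with TMM factors, its filter on low counts by group, the quasi-likelihood test and Benjamini-Hochberg adjustment, with no covariate. DESeq2 1.42.0 and limma 3.58.1 were alternatives. CPM uses effective library sizes, and exon lengths are those of GENCODE M21. Cells were clustered in Seurat 5.3.0 on 4777 of 4844 variable genes (20 components, resolution 0.8, scale factor 10000). Scrublet, at an expected rate of 0.06 in scanpy 1.11.5, called 3 cells (0.303%) doublets, and they were kept. Cluster levels are summed UMIs as CPM with exact Poisson intervals, shares of cells have exact Clopper-Pearson intervals, and both cover counting error only. Ratios have exact intervals from the binomial split of their UMIs. Over the control libraries, 3 counts are 0.0944 CPM. Pathway genes named are the 3 most abundant per length in each list and those past the test with groups that do not overlap (0), and others were named after their values were seen. Genes like Ptprz1 were ranked by Pearson correlation, in bulk on log2 CPM with a prior count of 2 and over clusters on log2 of CPM plus 10. The count test and the intervals were tested on simulated data.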

Additional observations from a re-analysis of the deposited data

Results flagged for a closer look

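Groups of 4 mutant libraries were compared for the members, the named pathway genes and the summed gene lists, 45 groups in all. Of these, 2 had a library far from the other 3 by Dixon's test at its 95% level. Chance flags about 1 in 20 such groups. Hyal2, a hyaluronidase, was at 77.9 CPM in mutant 1 and between 30.2 and 34.7 CPM in the other 3 mutants. The summed level of the ependymal markers was 225 CPM in mutant 1 and between 137 and 144 CPM in the others. No member was among them. The controls ranged from 38.5 to 71.4 CPM for Hyal2, within the range of the mutants, and from 145 to 245 CPM for the ependymal markers, a wider range than that of the mutants.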

How the results depend on the processing

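Across 16 alternatives (15 for Cspg4), Ptprz1, Cspg4, Cspg5, Vcan, Ncan, Bcan and Tnr kept a positive log2 fold change, with ranges of 2.24 to 2.85, 2.66 to 5.37, 1.12 to 2.11, 0.68 to 3.30, 1.06 to 2.45, 1.01 to 1.68 and 0.71 to 1.55. Ptn ranged from -0.09 to 1.18, Mdk from -1.33 to 0.61 and Tnc from -0.52 to 0.69, and their sign changed under 2, 3 and 9 alternatives. Vcan was at 3.30 without control 1, and Cspg4 could not be fitted with at least 10 counts in every library, which its 0 in control 3 fails. The number of genes called was 0 in the main fit, 360 by DESeq2, 240 without a filter on low counts, 210 between the libraries with over 30000 detected genes, 13 with at least 10 counts in every library, 3 with library sizes alone, 1 with upper-quartile scaling and 1 with the number of detected genes as a covariate. Leaving out 1 library gave between 0 and 45 genes, the most without control 1 and 16 without control 3. Pathway genes called were 0, but 3 by DESeq2 and 3 without a filter (Hapln2, Dcn and Lum), and between 0 and 2 with 1 library left out, Dcn and Lum without control 1. The causes were not tested. With the replicate number as a block, 0 genes and 0 pathway genes were called, and Ptprz1 stood at 2.29. The labels give no pairing, and same-numbered libraries correlated at -0.454, -0.008 and -0.227 in their deviations from the group means. Over these alternatives the median log2 fold change lay between -0.01 and 0.63 for all genes and between 1.05 and 1.55 for the members. In single cells, 2 members (Ptn and Mdk) were higher in tanycyte-like cells in the main clustering and under all 8 alternatives. The cells counted as tanycyte-like were 177 in the main clustering. They were 227 at a resolution of 0.4 and with 30 components, where they took in the ependymal-like cells. They were 226 with all variable genes and 216 with 10 components. The division between tanycyte-like and ependymal-like cells thus depended on the clustering. The ratio of OPC-like to tanycyte-like levels ranged from 15.7 to 25.1 for Ptprz1 and from 1.47 to 1.58 for Bcan. It reached 73.8 for Ncan with cells thinned to 3000 UMIs, where Vcan had no UMI left in tanycyte-like cells. Depth limits the values of Tnc, Cspg4, Vcan and Ncan in tanycyte-like cells, which rest on 0, 2, 4 and 12 UMIs.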
